A study of Mus musculus with 26 samples.

Results

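Id1, Id2, Id3 and Id4 encode the inhibitor of DNA binding proteins, Smad6 and Smad7 the inhibitory Smads, and Bambi a decoy receptor. These 7 genes were chosen by name, as known transcriptional readouts of BMP and TGF-beta signalling, from the 41442 gene rows of each of 2 RNA-seq count tables, and all 7 were found in both. The tables describe sorted mesenchymal cells of the fetal mouse reproductive tract, carrying a Tomato fluorescent protein from the Rosa locus that a Cre recombinase switches on. The fetal table holds 12 libraries of Gli1+ cells from the mesonephros, the fetal tissue in which the reproductive ducts develop, with 3 libraries for each of E14.5 XX, E14.5 XY, E16.5 XX and E16.5 XY (embryonic day and sex). The uterine table holds 3 libraries of Gli1+ and 3 of Amhr2+ cells, all XX, from the E19.5 uterus.

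Gli1+ cells came from embryos with Gli1-CreER and Rosa-Tomato, and Amhr2+ cells from embryos with Amhr2-Cre and Rosa-Tomato. The labels' protocol has dams of either line injected with 1 mg of tamoxifen, on E12.5 and again on E13.5. Gli1-CreER needs tamoxifen, so it marks cells that expressed Gli1, a hedgehog target, around the injections and the descendants of those cells. Amhr2-Cre, driven from the gene of the anti-Müllerian hormone receptor, needs none. The 2 uterine populations therefore differ in mouse line as well as in cells, and these cannot be told apart. Levels are given in CPM, counts scaled to a normalised library size. In the sorted cells Gli1 mRNA measured 184 CPM in each E14.5 XX library and 213 to 246 CPM in E14.5 XY libraries. At E16.5 it measured 48.5 to 54.0 CPM in XX and 194 to 220 CPM in XY libraries. In the uterus it measured 16.2 to 21.2 CPM in Gli1+ and 7.53 to 12.3 CPM in Amhr2+ cells, while Amhr2 measured 3.35 to 5.23 and 7.25 to 15.8 CPM in the same groups.

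BMPs are secreted ligands that bind paired type I and type II receptors, which phosphorylate the receptor Smads. These enter the nucleus with Smad4 and activate target genes, among which the Id genes are classic direct targets. Id proteins contain a helix-loop-helix domain but no DNA-binding region, and they hold E proteins such as Tcf3, Tcf4 and Tcf12 away from tissue-specific partners. Smad6 and Smad7 are induced by the same signal and block it at the receptors, Smad6 mainly in BMP and Smad7 in both BMP and TGF-beta signalling. Bambi resembles a type I receptor without a kinase domain. BMP and TGF-beta family signals are known to act in duct and gonad development, and the anti-Müllerian hormone receptor signals through the receptor Smads of the BMP branch.

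Total counts ranged from 23382983 to 64602477 in the fetal and from 28709191 to 37541045 in the uterine libraries. Every library held at least 540 reads of each of the 7 genes, so none was near the limit of detection. Mesenchyme markers summed to at least 26974 CPM in every library, and endothelial markers to at most 135 CPM and epithelial markers to at most 79.1 CPM. Germ cell markers summed to at most 6.53 CPM, with Dppa3 at 0 in every library. E14.5 XX replicate 3 stood apart in erythroid markers, at 979 CPM against 1.75 to 55.8 CPM in all others. It also held Ddx3y, a Y-linked gene, at 2.17 CPM against at most 0.246 CPM in the other XX libraries, and E14.5 XY replicate 3 held Xist at 16.2 CPM against at most 0.915 CPM in the other XY libraries. The labels do not say whether replicates came from separate animals, so p-values measure only the spread between these samples, which may be technical.

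The promoters are shown because a BMP or TGF-beta input to these genes could act through Smad binding there, though it could also act elsewhere. Each printed stretch overlaps a peak of open chromatin. Windows of 250 bases before to 50 bases after the start site were taken from RefSeq on GRCm38.p6 (mm10) for Id2 (chr12:25096043-25096342, minus strand), Id3 (chr4:136143572-136143871, plus strand), Id4 (chr13:48260866-48261165, plus strand) and Smad6 (chr9:64022010-64022309, minus strand). For Id1 the central 300 bases of a peak upstream of the gene are given (chr2:152735083-152735382, plus strand). Sequences run 5′ to 3′ on the strand of the gene, and capitals mark GGCGCC, a core that BMP Smads are known to bind, CAGAC, which holds the Smad box and reads GTCTG from the other strand, and GTCTAGAC, a palindrome of 2 Smad boxes. None of the searched motifs contains another.
Id1: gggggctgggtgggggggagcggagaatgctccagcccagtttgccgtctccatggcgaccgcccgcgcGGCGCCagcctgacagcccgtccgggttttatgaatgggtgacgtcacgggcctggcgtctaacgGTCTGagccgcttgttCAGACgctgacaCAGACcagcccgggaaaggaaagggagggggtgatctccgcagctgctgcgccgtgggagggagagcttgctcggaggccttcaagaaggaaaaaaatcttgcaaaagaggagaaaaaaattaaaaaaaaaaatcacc
Id2: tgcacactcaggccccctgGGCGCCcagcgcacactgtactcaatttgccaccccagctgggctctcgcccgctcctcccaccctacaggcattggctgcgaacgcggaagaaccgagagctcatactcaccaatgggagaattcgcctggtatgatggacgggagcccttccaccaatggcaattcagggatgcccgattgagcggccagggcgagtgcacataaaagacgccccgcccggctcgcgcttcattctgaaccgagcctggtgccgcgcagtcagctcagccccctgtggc
Id3: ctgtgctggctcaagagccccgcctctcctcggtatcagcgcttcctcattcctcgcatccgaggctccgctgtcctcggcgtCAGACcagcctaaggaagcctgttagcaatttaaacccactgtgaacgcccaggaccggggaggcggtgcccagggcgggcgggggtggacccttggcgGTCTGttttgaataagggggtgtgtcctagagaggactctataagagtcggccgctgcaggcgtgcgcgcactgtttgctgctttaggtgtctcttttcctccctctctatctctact
Id4: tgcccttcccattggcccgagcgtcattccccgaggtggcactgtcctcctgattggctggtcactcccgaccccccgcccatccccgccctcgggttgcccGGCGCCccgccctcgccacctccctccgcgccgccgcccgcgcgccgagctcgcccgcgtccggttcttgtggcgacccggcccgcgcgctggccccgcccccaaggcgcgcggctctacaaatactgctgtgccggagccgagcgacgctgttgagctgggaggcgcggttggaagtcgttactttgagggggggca
Smad6: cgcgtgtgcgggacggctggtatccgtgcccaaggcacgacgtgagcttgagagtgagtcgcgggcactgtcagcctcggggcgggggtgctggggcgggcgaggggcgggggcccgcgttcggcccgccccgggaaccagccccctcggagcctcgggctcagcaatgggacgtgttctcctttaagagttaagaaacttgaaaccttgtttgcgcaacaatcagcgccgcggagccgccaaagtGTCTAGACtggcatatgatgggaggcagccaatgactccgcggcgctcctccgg

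Positions of matches are given in bases from the start site, for the first base of the match on the gene's strand, with the RefSeq start for the promoter windows and the GENCODE start for Id1. The Id2 and Id3 windows lie inside the gene as GENCODE gives it, and the Id4 window lies before it. The Id1 upstream stretch held GGCGCC at -1099 and 3 matches to CAGAC or its complement, at -1034, -1018 and -1006. GGCGCC stood once in the Id2 window, at -231, and once in the Id4 window, at -148. The Id3 window held 2 matches to CAGAC or its complement, at -167 and -68. The Smad6 window held GTCTAGAC at -4. Searched on both strands, GGCGCC was found in 11.9% of 32851 promoter windows of the same length, CAGAC in 49.6% and GTCTAGAC in 0.213%. In the central 300 bases of 28961 peaks at least that wide, 4339 held GGCGCC, 14757 held CAGAC (51.0%) and 71 held GTCTAGAC (0.245%). A match describes letters only and is not a measured binding site.

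Per kilobase of exon the Id genes were the most abundant of the 7 in nearly every group. The kits of the fetal and uterine libraries differ, so levels were not compared between them. Id3 had the highest mean in 5 of 6 groups, in RPKM (CPM per kilobase of all annotated exons). In the fetal ones of these it ranged from 67.3 ± 17.2 RPKM (SD, n = 3) in E16.5 XY to 97.9 ± 14.1 in E14.5 XX. In the uterus it measured 106 ± 10.6 RPKM in Gli1+ and 136 ± 18.2 in Amhr2+ cells. Id1 led in E14.5 XY, at 122 ± 40.6 RPKM against 88.3 ± 27.7 for Id3, and the libraries of both overlapped in all fetal groups. In the uterus every library of Id3 was above every library of Id1. Id2 followed at 34.6 to 49.1 RPKM on average. Among the fetal groups Id4 ranged from 13.0 ± 1.17 RPKM in E14.5 XX to 29.8 ± 2.63 in E16.5 XX. In the uterus it measured 30.2 ± 1.93 RPKM in Amhr2+ and 52.2 ± 4.35 in Gli1+ cells. In uterine Gli1+ cells Id4 overlapped both Id1 and Id2. Smad6, Smad7 and Bambi had means between 5.27 and 14.52 RPKM in all 6 groups, and in 4 of these groups each was below every Id gene. At E14.5 Id4 stood among them, at 13.0 RPKM against 12.6 ± 2.58 for Smad7 in XX and at 14.2 ± 3.33 against 14.52 ± 3.48 for Smad6 in XY, each time with overlapping libraries.

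**Figure D1:**
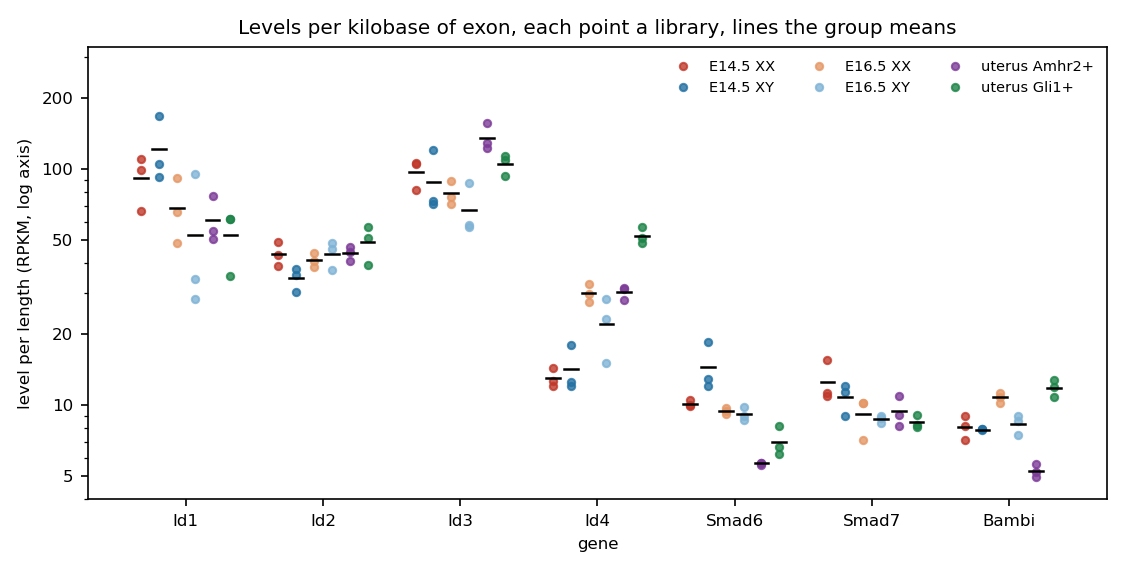
Level per kilobase of exon (RPKM, log axis) of the 7 genes, with 1 point for each library in colours by group and a line at each group's mean. Id1 and Id3 lie highest, with group means of 52.6 RPKM and above, and Smad6, Smad7 and Bambi lie lowest, with means of at most 14.52 RPKM.

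Changes were counted with edgeR's quasi-likelihood test, calling a gene at a Benjamini-Hochberg adjusted p under 0.05 over all genes tested, which included all 7 in both tables. Between the sexes at E14.5, 1 of the 7 was called, Smad6, lower in XX. Of all genes 6.28% were called, 2.59% higher and 3.69% lower in XX. The CPM of the groups did not overlap for 2 of 7, Id2 and Smad6, against 27.2% of all genes. At E16.5 the call was Bambi, higher in XX, 1 of 7 against 27.3% of all genes, 13.2% higher and 14.1% lower in XX. Bambi was also the one gene without overlap, against 38.3%. With age in XX, 3 of 7 were called, Id4 and Bambi higher and Smad7 lower at E16.5, against 39.6% of all genes, 21% higher and 18.6% lower. These and Smad6 did not overlap, 4 of 7 against 56.6%. With age in XY, 2 of 7 were called, Id2 higher and Smad6 lower, against 23.3%, 13.1% higher and 10.2% lower. Smad6 and Smad7 did not overlap, 2 of 7 against 34.9%. In the uterus 3 of 7 were called, Id3 higher and Id4 and Bambi lower in Amhr2+ cells, against 23.9%, 10.1% higher and 13.7% lower. These and Smad6 did not overlap, 4 of 7 against 44.4%. Among 7 genes, counts of 1 to 4 are near these backgrounds and show nothing particular to the members. Scaling by library size alone turned the balance of all calls from 2340 higher and 1828 lower to 1847 and 2641 with age in XY, from 3746 and 3322 to 3130 and 3924 with age in XX, and from 1642 and 2224 to 2849 and 1640 in the uterus, but turned the direction of none of the 7 genes.

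No member was called in the interaction, which tests whether the sex difference changed between the ages, against 10% of all genes, 4.66% higher and 5.36% lower. The lowest adjusted p were those of Smad6, Id2 and Bambi. The interaction was 0.57 (95% interval 0.20 to 0.93, adjusted p 0.0517) for Smad6, -0.43 (-0.76 to -0.10, adjusted p 0.0993) for Id2 and 0.33 (0.07 to 0.60, adjusted p 0.104) for Bambi on the log2 scale. With same-numbered libraries of the sexes as a replicate block, Smad6 and Id2 were called (0.54, adjusted p 0.0294, and -0.43, adjusted p 0.0404). DESeq2 called both as well (adjusted p 0.0249 and 0.0499). These settings also called more genes in all, 2592 of 17858 with the block and 2188 of 16202 by DESeq2, against 1790 of 17858. Leaving out 1 library added a call for Smad6 (adjusted p 0.0117 without E14.5 XY replicate 1, 0.0390 without replicate 3), for Id2 (0.0267 without E16.5 XY replicate 2) and for Bambi (0.0497 without E14.5 XX replicate 3, 0.0429 without E16.5 XY replicate 1). The median log2 fold change of the 7 genes was 0.04 between sexes at E14.5 against -0.01 for all genes, and 0.23 against 0.01 at E16.5. It was -0.10 against 0.00 with age in XX, -0.31 against -0.01 with age in XY, 0.33 against 0.02 for the interaction and -0.15 against -0.00 in the uterus.

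**Figure D2:**
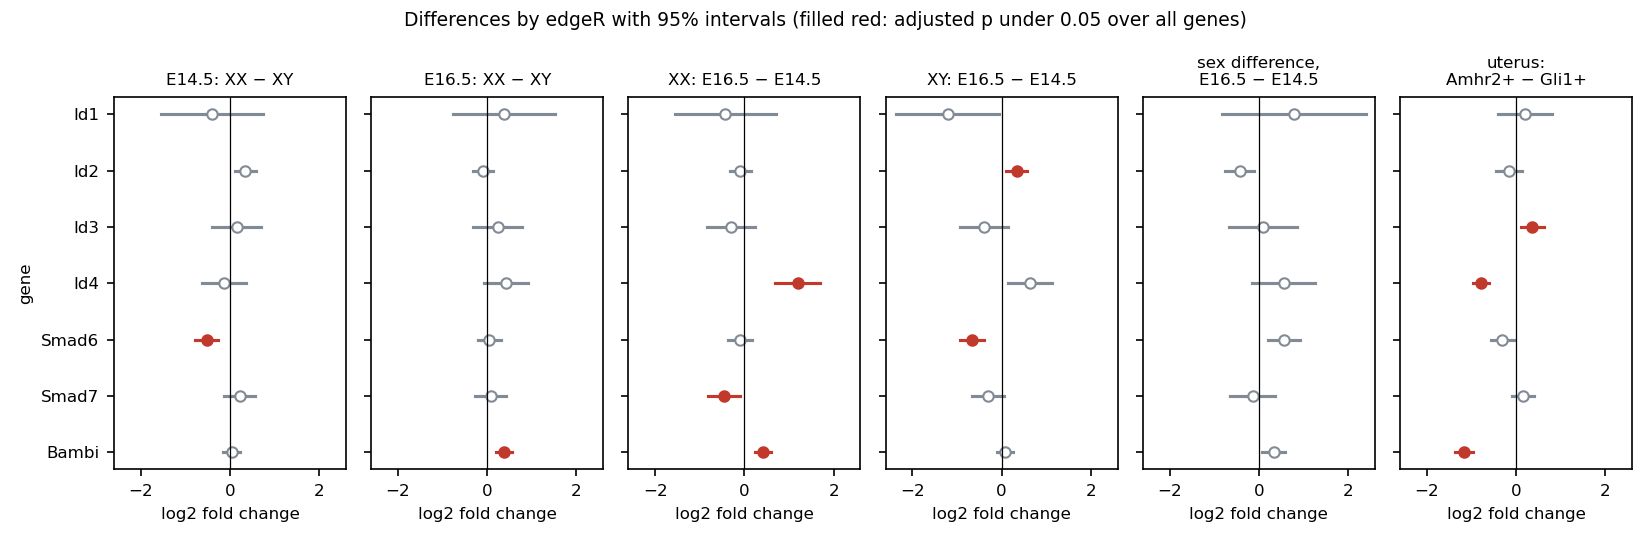
Log2 fold change with its 95% interval (edgeR) for each gene in the 6 comparisons, the panel title giving the direction and filled red points marking an adjusted p under 0.05. The intervals are widest for Id1, for which that of the age difference in XY runs from -2.36 to -0.06, and the largest called differences are those of Id4 with age in XX (1.19) and of Bambi in the uterus (-1.17).

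Id1, on chromosome 2 (152736251 to 152737410, plus strand), was the most variable of the 7 between libraries of 1 group. In the order of replicates 1 to 3 it measured 129, 115 and 77.0 CPM in E14.5 XX and 108, 196 and 122 CPM in E14.5 XY. At E16.5 it measured 76.5, 56.5 and 106 CPM in XX and 32.6, 39.6 and 111 CPM in XY, so the highest XY library was 3.40 times the lowest. The means fell from 142 ± 47.1 to 61.0 ± 43.3 CPM (SD, n = 3) in XY, a log2 difference of -1.21 (SE 0.501) that was not called (adjusted p 0.124). Replicate 3 of E16.5 XY lay within the E14.5 range, and without it the difference was -1.96 and was called (adjusted p 0.0107). In XX the difference was -0.42 with an interval of -1.57 to 0.72. The sexes overlapped at both ages, with log2 differences of -0.41 (-1.55 to 0.73) at E14.5 and 0.38 (-0.76 to 1.52) at E16.5.

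Id3, on chromosome 4 (136143497 to 136145392, plus strand), showed no called difference among the fetal groups. It measured 191, 188 and 146 CPM in E14.5 XX, 131, 215 and 128 in E14.5 XY, 137, 128 and 160 in E16.5 XX and 102, 104 and 156 in E16.5 XY. All neighbouring groups overlapped in the order of their means, which were 175 ± 25.2, 158 ± 49.6, 142 ± 16.8 and 121 ± 30.8 CPM. The age differences were -0.31 (interval -0.85 to 0.23) in XX and -0.39 (-0.93 to 0.15) in XY. Id3 and Id1 had their highest library in common in all 6 groups. Across the 12 fetal libraries, which share the preparation of their group, the log2 CPM of Id1 and Id3 had a Pearson's r of 0.864, given as a description.

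Immediate-early and stress genes, which tissue dissociation is known to induce, had their highest library in common with Id1 in each fetal group. The summed level of 15 such genes, none of them at 0 in any group, was 4847, 14603 and 24146 CPM in E16.5 XY replicates 1 to 3, the order of Id1 in these libraries. In E16.5 XX it was 16548, 12655 and 21966 CPM, again the order of Id1. At E14.5 it ranged from 10336 to 11443 CPM in XX and from 11179 to 15094 CPM in XY, with Id1 and the list highest in the same library of each group. In E14.5 XX the orders otherwise differed, as replicates 2 and 3 had sums of 10336 and 10754 CPM but Id1 at 115 and 77.0 CPM. Between the ages in XX the sums were higher at E16.5, while the mean of Id1 was lower, at 79.7 against 107 CPM. Of the 15 genes, 3 rose with age in XX and 2 were higher in XX at E16.5, among them the heat-shock genes Hspa1a and Hspa1b, near-identical copies that can share reads. Id4 also had its highest library in common with the list in each fetal group. In both E16.5 groups the order of Id4 was that of the sums, and Id4 rose with age in XX, as the sums did. Smad6 shared its highest library with the list in both XY groups but in neither XX group. The part of the immediate-early genes in the Id1, Id3, Id4 and Smad6 values was not tested.

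**Figure D3:**
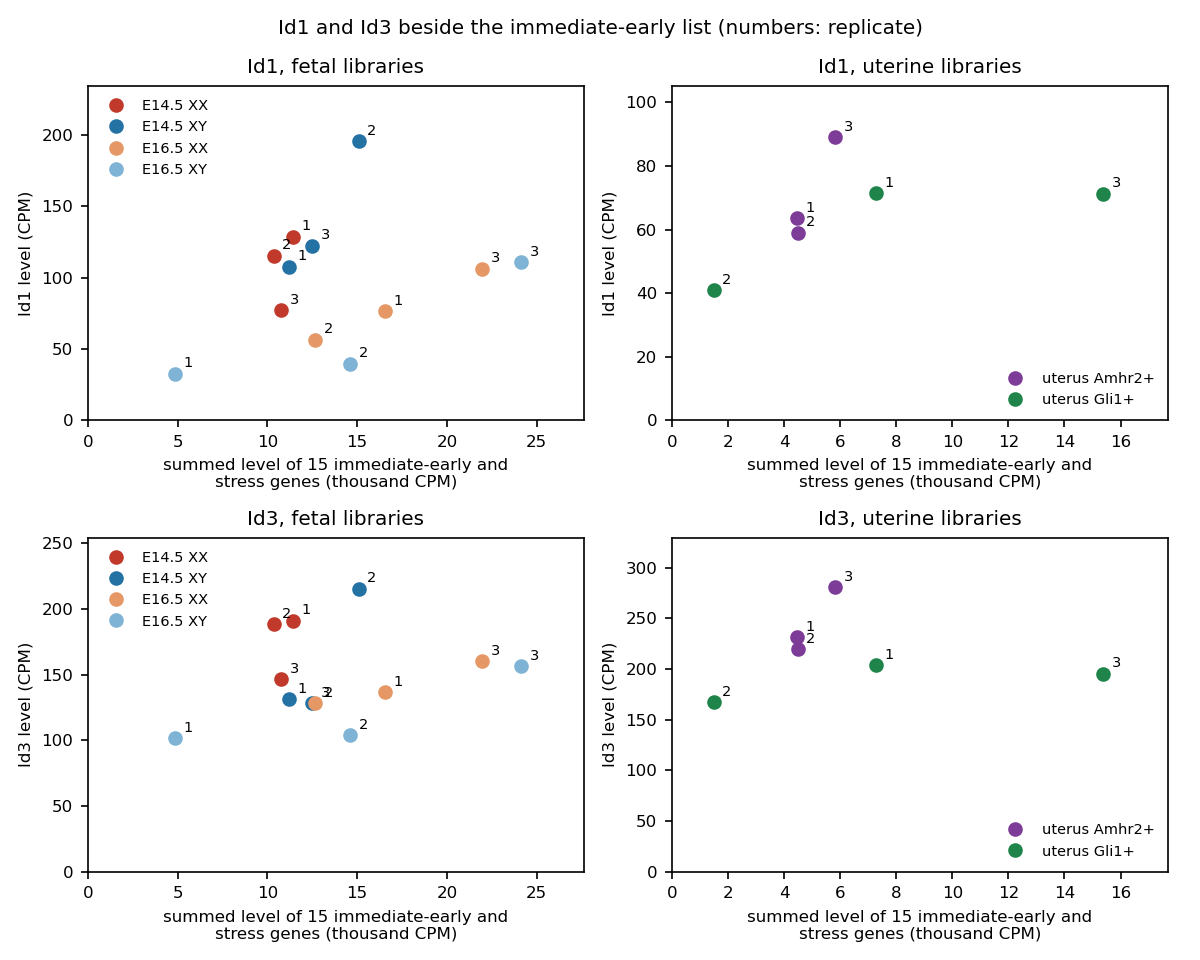
Level of Id1 (top) and Id3 (bottom) in CPM against the summed level of 15 immediate-early and stress genes, with 1 numbered point for each library, fetal on the left and uterine on the right. In both E16.5 groups the library with the highest list sum, 21966 CPM in XX and 24146 CPM in XY, also has the highest Id1 and Id3, and uterine Gli1+ replicate 2 has the lowest of all 3 values in the uterus.

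In the uterus Id1 did not separate the populations, while Id3 was higher in Amhr2+ cells. Id1 measured 63.5, 59.0 and 89.0 CPM in Amhr2+ and 71.5, 40.9 and 71.3 CPM in Gli1+ cells, a log2 difference of 0.20 (interval -0.41 to 0.81). Id3 measured 231, 219 and 281 CPM in Amhr2+ and 204, 168 and 196 CPM in Gli1+ cells. The groups of Id3 did not overlap, with a log2 difference of 0.37 (SE 0.109, adjusted p 0.0411), 1.29-fold higher in Amhr2+ cells. The call was lost without Amhr2+ replicate 1 or 3 (adjusted p 0.0808 and 0.0941) and without Gli1+ replicate 1, 2 or 3 (0.0622, 0.101 and 0.0672). The immediate-early sum was 7270, 1505 and 15379 CPM in Gli1+ and 4470 to 5833 CPM in Amhr2+ libraries, and its lowest library, Gli1+ replicate 2, was also the lowest for Id3. Gli1+ replicates 1 and 3 differed in this sum, at 7270 and 15379 CPM, but hardly in Id1, at 71.5 and 71.3 CPM. The part of the immediate-early genes was not tested here either.

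Id2, on chromosome 12 (25093799 to 25097140, minus strand), was steady, with group means from 84.4 to 107 CPM in the fetal table. E14.5 XY was the lowest group, at 74.0, 92.2 and 87.0 CPM, below the 106, 120 and 94.6 CPM of E14.5 XX without overlap. The log2 difference between these sexes was 0.34 (SE 0.110, interval 0.10 to 0.57), which missed the threshold (adjusted p 0.0913), and it was called by DESeq2 (0.0362), in a fit of only the 6 libraries compared (0.0481) and with the replicate block (0.0349). At E16.5 Id2 measured 108, 99.1 and 93.9 CPM in XX and 112, 90.9 and 118 CPM in XY, with a log2 difference of -0.09 (interval -0.33 to 0.14). In XY it rose with age by 0.34 on the log2 scale (SE 0.109, adjusted p 0.0355), although 1 E16.5 library, at 90.9 CPM, lay below the highest of E14.5. This call was lost without E14.5 XY replicate 1 or 3 (adjusted p 0.144 and 0.0678), without E16.5 XY replicate 1 or 3 (0.102 for each), with library size as the only scaling (0.0805), in a fit of only the 6 libraries compared (0.0602) and with the replicate block (0.0511). In the uterus Id2 measured 108, 115 and 99.5 CPM in Amhr2+ and 124, 139 and 95.8 CPM in Gli1+ cells, a log2 difference of -0.15 (interval -0.45 to 0.14). Without Gli1+ replicate 3, the lowest library, it was -0.29 and was called (adjusted p 0.0498).

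Id4, on chromosome 13 (48261228 to 48266026, plus strand), had the largest called rise with age of the 7 and differed most among the Id genes in the uterus. In XX it measured 55.1, 48.6 and 46.5 CPM at E14.5 and 114, 105 and 125 CPM at E16.5. The lowest E16.5 library was above the highest of E14.5, and the mean rose 2.29-fold, from 50.1 ± 4.49 to 115 ± 10.1 CPM (log2 difference 1.19, SE 0.223, adjusted p 0.00221). The call held without each of the 6 libraries, with log2 differences of 1.13 to 1.27. In XY it measured 48.3, 69.5 and 46.4 CPM at E14.5 and 58.1, 89.4 and 108 CPM at E16.5, which overlap. There the log2 difference was 0.64 (SE 0.220, adjusted p 0.0647). It was called without E14.5 XY replicate 2 (0.85, adjusted p 0.0220), without E16.5 XY replicate 1 (0.85, adjusted p 0.00352), by DESeq2 (0.65, adjusted p 0.0287) and with the replicate block (0.62, adjusted p 0.0391). The 2 age differences were not shown to differ, with an interaction of 0.56 (interval -0.14 to 1.25, adjusted p 0.330). The sexes overlapped at both ages, with a log2 difference of 0.43 (interval -0.06 to 0.92) at E16.5.

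In the uterus Id4 measured 120, 121 and 108 CPM in Amhr2+ cells and 219, 187 and 196 CPM in Gli1+ cells. Every Gli1+ library was above every Amhr2+ library, and the mean was 1.73-fold lower in Amhr2+ cells (log2 difference -0.79, SE 0.0785, adjusted p 0.000295). The call held without each of the 6 libraries, with log2 differences of -0.84 to -0.72. Id4 is overlapped by 2 genes with clone-based names on the opposite strand, which the other 6 genes are not. The fetal libraries were not stranded, and the use of strand in counting is not given in the sources used here, so reads of these genes cannot be told apart from those of Id4.

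Smad6, on chromosome 9 (63953076 to 64022059, minus strand), was highest in E14.5 XY cells. It measured 38.8, 59.3 and 41.5 CPM there and 31.8, 32.1 and 33.7 CPM in E14.5 XX. At E16.5 it measured 29.5, 31.3 and 30.3 CPM in XX and 28.8, 27.8 and 31.6 CPM in XY. All 3 E14.5 XY libraries were above all 9 other fetal libraries, with replicate 2 standing out. The sexes at E14.5 differed by -0.52 on the log2 scale (SE 0.122, adjusted p 0.0190), 1.43-fold lower in XX. Without XY replicate 2 the difference was -0.30 (adjusted p 0.0439), and the call was lost without XX replicate 1, 2 or 3 (0.0844, 0.0751 and 0.0567) and in a fit of only the 6 libraries compared (0.0598). In XY Smad6 fell by 0.66 with age (SE 0.121, adjusted p 0.000928), 1.59-fold, and the call held without each of the 6 libraries, with log2 differences of -0.78 to -0.45. In XX the age difference was -0.10 (interval -0.36 to 0.16), and at E16.5 the sex difference was 0.05 (-0.21 to 0.31).

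Smooth muscle markers also set XY cells apart, in the opposite direction over time. They summed to 607 to 889 CPM in E14.5 XY and 1724 to 2906 CPM in E16.5 XY, with 7 of 7 genes higher at E16.5, against 302 to 327 and 466 to 568 CPM in XX. Endothelial markers, from cells in which Smad6 is known to be prominent, summed to 108 to 122 CPM in E14.5 XY and 121 to 135 CPM in E14.5 XX. In XY they went to 87.3 to 96.9 CPM at E16.5, with 2 of 9 tested genes lower and 2 higher. In XX, where Smad6 had no called change with age, they went to 72.8 to 85.8 CPM, with 4 of 9 lower and none higher. The part of either cell type in the Smad6 values was not tested, and in such bulk libraries fewer cells of a type and less RNA per cell cannot be told apart.

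In the uterus Smad6 measured 17.9, 18.3 and 18.3 CPM in Amhr2+ and 26.1, 19.8 and 21.4 CPM in Gli1+ cells. These did not overlap, but the log2 difference of -0.30 (SE 0.111, interval -0.56 to -0.05) missed the threshold (adjusted p 0.0791). Without Gli1+ replicate 2 it was -0.39 and was called (adjusted p 0.0360). Smad7, on chromosome 18, had no call in the uterus either, at 41.2, 36.9 and 49.7 CPM in Amhr2+ and 41.0, 37.3 and 36.7 CPM in Gli1+ cells, a log2 difference of 0.15 (interval -0.10 to 0.40).

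In the fetal groups Smad7 was lower at E16.5 in both sexes on average, with a call in XX. In XX it measured 49.5, 50.8 and 70.3 CPM at E14.5 and 46.2, 46.2 and 32.3 CPM at E16.5, which do not overlap (log2 difference -0.45, SE 0.163, adjusted p 0.0447). The gap between the nearest libraries was small, and the call was lost without E14.5 replicate 3 (-0.27, adjusted p 0.178), the library with the high erythroid sum, and without E16.5 replicate 3 (-0.30, adjusted p 0.126). It was also lost with no filter on low counts (0.162), in a fit of only the 6 libraries compared (0.145) and with the replicate block (0.118). In XY Smad7 measured 40.7, 51.3 and 54.6 CPM at E14.5 and 40.6, 37.9 and 40.1 CPM at E16.5, a small gap without overlap and a log2 difference of -0.31 (interval -0.66 to 0.04, adjusted p 0.199). The sex differences were 0.22 (interval -0.14 to 0.57) at E14.5 and 0.07 (-0.28 to 0.43) at E16.5.

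Bambi, on chromosome 18, was higher in E16.5 XX cells than in the other 3 fetal groups. It measured 55.0, 57.3 and 51.9 CPM in E16.5 XX, against 45.5, 38.1 and 43.3 CPM in E16.5 XY. At E14.5 it measured 36.0, 41.4 and 45.7 CPM in XX and 40.2, 40.1 and 39.8 CPM in XY. Every E16.5 XX library was above all 9 others, which overlapped among themselves. The sex difference at E16.5 was 0.37 on the log2 scale (SE 0.0860, adjusted p 0.00437), 1.29-fold, and the rise with age in XX was 0.42 (SE 0.0869, adjusted p 0.00152), 1.33-fold. Both calls held without each of the 6 libraries compared, at 0.30 to 0.42 and 0.33 to 0.50. At E14.5 the sexes differed by 0.04 (interval -0.15 to 0.22), and in XY the age difference was 0.08 (-0.10 to 0.27).

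Markers of other cells also differed between these groups. Immune cell markers were higher in XX at E16.5 in 6 of 9 cases, such as Adgre1 (2.25), Tyrobp (2.04) and Lyz2 (1.93), with none lower. Their sum was 33.4 to 83.4 CPM in E16.5 XX and 14.7 to 49.0 CPM in E16.5 XY, against 61.8 to 68.7 and 43.2 to 59.4 CPM at E14.5, and none was at 0 in all libraries of a group. Cd68 was the highest of them at E16.5, with means of 34.5 CPM in XX and 30.8 CPM in XY. Most of the list was low, with 7 of 9 genes at a mean under 1 CPM in E16.5 XY and 1 in E16.5 XX. With age in XX, in which Id4 also rose and Smad7 fell, 6 of 9 immune cell markers rose. They were also higher in XX at E14.5 in 2 of 9 cases, and 3 of 9 rose with age in XY. Bambi was not called in either of these comparisons. Smooth muscle markers were lower in XX at E16.5 in 6 of 7 cases, such as Myh11 (-4.35), and in XX 4 of 7 rose and 1 fell with age. The part of these cells in the Bambi, Id4 and Smad7 values was not tested.

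The largest difference of Bambi was between the uterine populations. It measured 28.7, 25.2 and 26.3 CPM in Amhr2+ cells and 60.5, 65.0 and 55.0 CPM in Gli1+ cells. The highest Amhr2+ library was far below the lowest Gli1+ library, and the mean was 2.25-fold lower in Amhr2+ cells (log2 difference -1.17, SE 0.0849, adjusted p 6.18e-05). The call held without each of the 6 libraries, with log2 differences of -1.23 to -1.11. Bambi and Id4 thus had the 2 uterine differences that no left-out library ended.

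**Figure D4:**
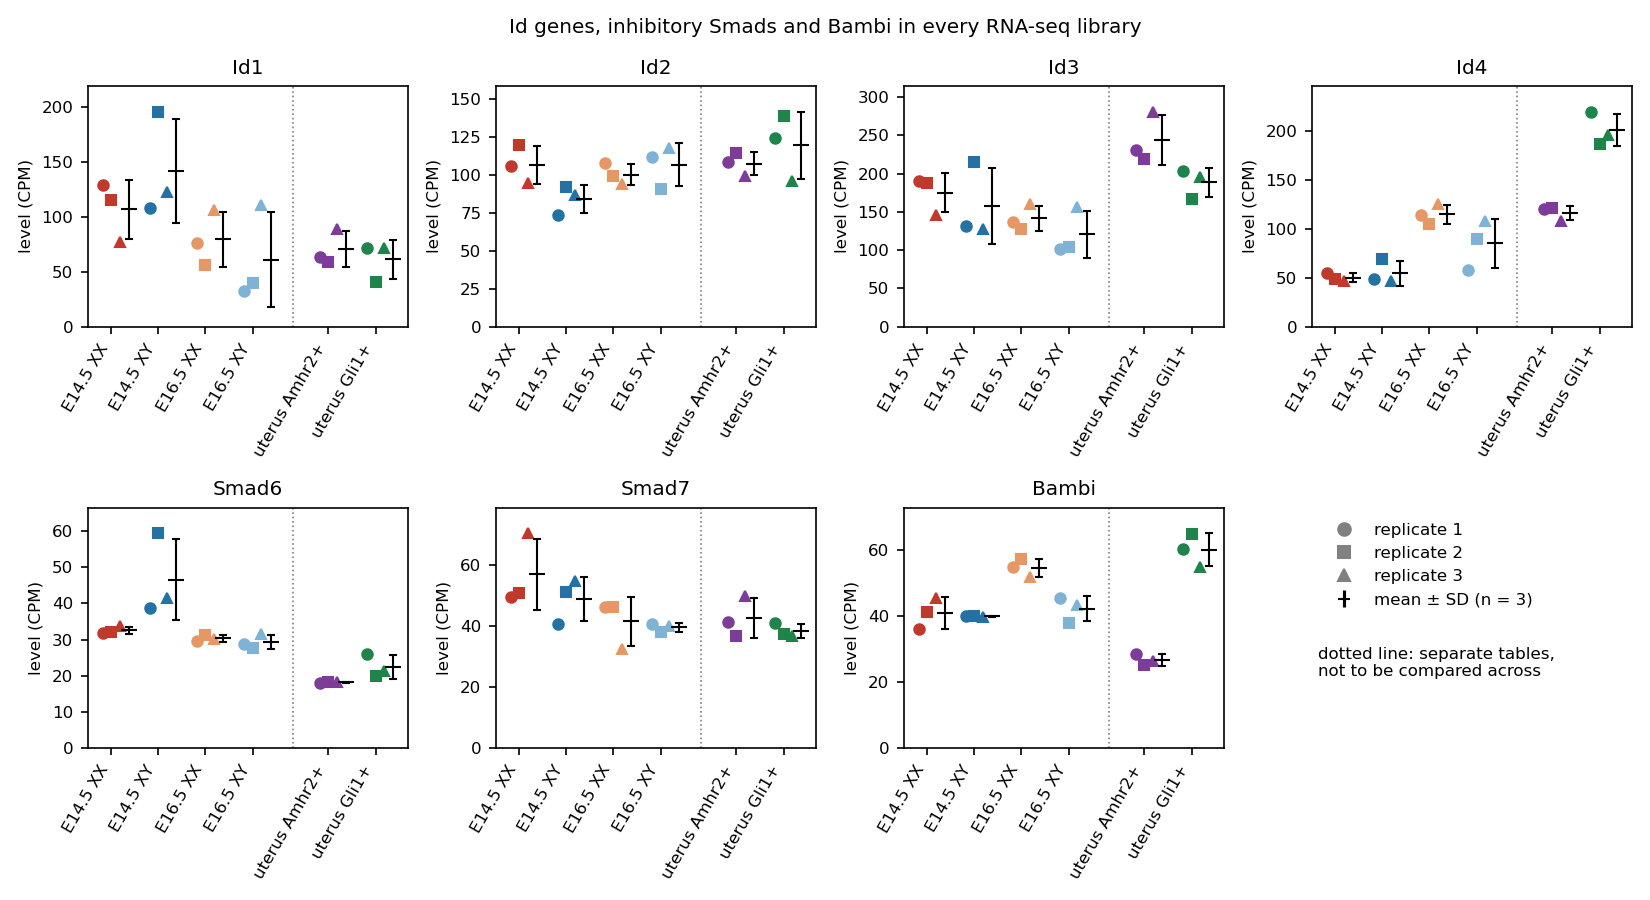
Level (CPM) of each gene in every RNA-seq library, marker shape giving the replicate and the bar the group mean ± SD (n = 3), with a dotted line between the fetal and the uterine table. Smad6 is highest in E14.5 XY (38.8 to 59.3 CPM), Id4 at E16.5 in XX (105 to 125 CPM) and in uterine Gli1+ cells (187 to 219 CPM), and Bambi in E16.5 XX (51.9 to 57.3 CPM) and uterine Gli1+ cells (55.0 to 65.0 CPM).

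Markers of other cells differed between the uterine populations beside Id3, Id4 and Bambi. Mesenchyme markers summed to 26974 to 28808 CPM in Amhr2+ and 56023 to 63210 CPM in Gli1+ cells, with 5 of 7 genes lower in Amhr2+ cells. Smooth muscle markers summed to 1130 to 1789 and 2143 to 2367 CPM, with 2 of 7 lower. Endothelial markers summed to 35.8 to 40.9 and 47.8 to 56.5 CPM, with 4 of 9 tested genes lower, and epithelial markers to 76.7 to 79.1 and 35.3 to 48.9 CPM, with 4 of 9 higher. None of these markers was at 0 in all libraries of a group. Erythroid markers, with Hba-x and Hbb-y at 0, summed to 1.75 to 2.54 and 7.84 to 8.67 CPM, with 3 of 3 tested genes lower. Immune cell markers summed to 45.7 to 85.7 and 23.7 to 86.7 CPM, which overlap. The part of these cells in the differences of Id3, Id4 and Bambi was not tested.

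Genes that sit above and beside the 7 in the pathway moved in both directions, by lists chosen with earlier results of these data known. Among BMP ligands 2 of 10 differed between the sexes at E14.5, against 6.28% of all genes, Bmp2 (-1.71) and Bmp4 (-0.75), both lower in XX. At E16.5, when 27.3% of all genes differed, 8 of 10 did, 4 higher and 4 lower in XX, with the largest log2 differences in Bmp4 (-2.47), Bmp3 (-1.31) and Bmp6 (-1.29). Secreted antagonists were mostly lower in XX at E16.5, 5 of 9 tested against 1 higher, where 14.1% of all genes were lower, with Chrdl1 at -3.50. Of 6 tested TGF-beta and activin ligands, 2 were lower in XX at E14.5 and none higher, where 3.69% of all genes were lower. At E16.5, 4 of these ligands were lower, with Inhba at -1.77, and 1 was higher. Of 4 TGF-beta response genes, 1 was higher and 1 lower in XX at each age. In the interaction, in which none of the 7 was called, 6 of 10 BMP ligands were, 3 in each direction, against 10% of all genes.

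With age in XX, when 39.6% of all genes were called and 18.6% fell, 4 of 6 genes in the list of receptor Smads with Smad4 fell, Smad5 (-0.84), Smad9 (-0.46) and Smad3 (-0.36) the most, and none rose. Of 12 receptors and co-receptors 7 fell and 3 rose, with Acvrl1 at 0.90, Acvr2b at -0.84 and Tgfbr1 at -0.74. E proteins, the partners of the Id proteins, fell in 2 of 3 cases in both sexes, Tcf12 by 0.68 in XX and 0.54 in XY and Tcf4 by 0.25 and 0.27 on the log2 scale. Among 4 other BMP response genes, 2 rose with age in XX and none fell, with Msx1 at 2.45, the direction of Id4. In XY Msx1 rose (2.34) and Msx2 fell (-3.51). Between the sexes at E14.5, where 3.69% of all genes were lower in XX, Msx2 (-3.64) and Msx1 (-0.94) were lower and none was higher. At E16.5, 1 of the 4 was lower in XX and none higher. Msx1 and Msx2 were low at E14.5, with group means of 0.40 to 4.99 CPM. Of 9 intracellular brakes on the pathway, such as the Smad repressor Skil (-1.18), 4 fell and 2 rose with age in XX. Of 6 tested TGF-beta and activin ligands, 2 rose and 2 fell with age in XX, and none of 4 TGF-beta response genes was called. With age in XY, when 23.3% of all genes were called, 3 of these ligands rose and 1 fell, and 1 response gene fell. These lists are short, and no list was tested as a whole.

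In the uterus, where 10.1% of all genes were higher and 13.7% lower in Amhr2+ cells, receptor Smads were higher in these cells, in 3 of 6 cases of the list with Smad4, Smad5 (0.50), Smad9 (0.44) and Smad1 (0.39), with none lower. Receptors were lower in 5 of 12 cases, Bmpr1b (-1.40), Acvrl1 (-0.96) and Tgfbr3 (-0.85) the most, with none higher, the direction of Bambi. Pmepa1 (-1.06), a TGF-beta induced brake that sequesters receptor Smads, was also lower, among 3 of 9 brakes lower and 1 higher. E proteins were higher in 2 of 3 cases, Tcf4 (1.01) and Tcf12 (0.27). BMP ligands went both ways, 3 of 10 higher and 2 lower, with Bmp5 at -2.52. TGF-beta and activin ligands were lower in 4 of 6 tested cases, with none higher. TGF-beta response genes were higher in 2 of 4 cases, with none lower. Of the genes named here Bmp4, Bmp5, Bmp6, Inhba, Smad5, Acvrl1, Acvr2b, Tgfbr3, Tcf4 and Tcf12 overlap another annotated gene.

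The genes with the most similar profile over the 12 fetal libraries were sought by Pearson's r of log2 CPM among 10450 genes that reached a mean of 10 CPM in a group. They were Maml1 (0.945) and Adnp2 (0.931) for Id1, Tfap4 (0.857) and Parp2 (0.819) for Id2, Pspc1 (0.911) and Sf1 (0.903) for Id3, and Gcc1 (0.955) and Lmo7 (0.948) for Id4. For Smad7 they were Zfp334 (0.882) and Unc119b (0.858), and for Bambi Cnppd1 (0.956) and Zfp703 (0.953). Gcc1 had group means of 31.6 and 74.1 CPM in XX at E14.5 and E16.5, the direction of Id4. Zfp703 had 51.4 CPM in E16.5 XX against 20.3 to 26.4 CPM in the other fetal groups, the group in which Bambi was highest. The libraries of a group share their preparation, so these values are descriptions. The genes were picked for likeness over these same libraries, so a shared pattern follows from that choice.

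Chromatin accessibility around the 7 genes was known from a single list of 71040 ATAC-seq peak positions for all 8 fetal Gli1+ samples (2 for each sex and age), so it could not be compared between groups. A peak covered an annotated transcript start of 6 of the 7 genes. The exception was Id4, whose nearest peak ended 12 bases before the GENCODE start but covered the whole RefSeq promoter window, which has its start further upstream. Within 10 kb of the gene there were 8 peaks at Smad7, 4 of them in introns, 7 at Smad6, 6 of them in introns, 6 at Id3, 5 at Id1, 4 at Id2, 3 at Id4 and 1 at Bambi. The searched stretch included the gene itself, and Smad6 and Smad7 are the longest of the 7, so their counts cover more sequence. The peak at the start was widest for Smad6 (1316 bp) and Smad7 (1307 bp), against a median of 233 bp over the list. All 4 genes of the 7 in the promoter table, those printed above, had a peak on the window, against 44.6% of 27025 genes. That share covers genes whether expressed in these cells or not, and the median width covers peaks at any place, so neither is a matched comparison.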

How the data were processed

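Per the labels' protocols, RNA of sorted cells went into unstranded libraries for the fetal and stranded ones for the uterine samples. The authors deposited both RNA tables as raw read counts per gene, with mm10 positions. The submitters' processing notes name STAR 2.5 and featureCounts of Subread 1.5.0-p1, and for ATAC-seq Bowtie 1.2 and MACS2 2.1.1, with the build mm10. Strand use in counting and peak thresholds are not given in the sources used here. The deposited peak list has positions only.

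Counts were tested with edgeR 4.0.16 in R 4.3.3 (filterByExpr, TMM, quasi-likelihood F test, Benjamini-Hochberg adjustment), tested first on simulated data. The 4 fetal groups shared 1 model of group means over 17858 genes, and the 6 uterine libraries had their own over 16195 genes, since the kits differ. Log2 differences are XX minus XY, E16.5 minus E14.5, and Amhr2+ minus Gli1+. The interaction is the sex difference at E16.5 minus that at E14.5. SE is the log2 difference over the root of F. CPM use TMM-scaled library sizes, and RPKM divide them by exon length in GENCODE vM21. No 2 replicates agreed within sampling noise (chi-square per degree of freedom 3.60 or more). Promoters are from RefSeq, GRCm38.p6, which held 4 of the 7 genes.

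The genes and lists were chosen with earlier results of these data known. All 7 genes are named. From other lists at most the 3 largest called differences per comparison are named, and 2 genes of like profile per member, except for Smad6, for which they are not reported here. Alternatives were DESeq2 1.42.0, its size factors, no TMM, no low-count filter, a fit of only the 6 libraries compared, leaving out each library, and a replicate block. At E16.5 same-numbered libraries of the sexes deviated together (correlations 0.28, 0.11 and 0.40, each over 0.1). At E14.5 (0.07, 0.05 and 0.05) and in the uterus (0.0018, 0.22 and 0.24) not every same-numbered pair passed 0.1. Differently numbered pairs ran from -0.34 to 0.11 at E16.5 and from -0.24 to 0.13 in the uterus, so passing 0.1 was not confined to same numbers. What a replicate number marks is not stated in the labels.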

Additional observations from a re-analysis of the deposited data

How the results depend on the processing

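DESeq2's size factors in edgeR changed no count of called members. DESeq2 itself called 2 members between sexes at E14.5 and 2 in the interaction, against 1438 and 2188 of 16202 genes. Library size as the only scaling gave 1 with age in XY and 1 in the interaction, against 4488 and 1763 of 17858 genes. A fit restricted to the 6 XY libraries gave 1 with age in XY, against 2794 of 17143 genes. With the replicate block 2 were called between sexes at E14.5, the added one being Id2 (adjusted p 0.0349), and 2 in the interaction. Of all 17858 genes the block called 1581 and 2592 in these comparisons. The block also ended the calls of Smad7 with age in XX (0.118) and Id2 with age in XY (0.0511) and added Id4 there (0.0391). Every same-numbered pair's correlation passed 0.1 for the sexes at E16.5, while in the uterus 2 of 3 such pairs did. A differently numbered pair passed it as well in each case. The block changed no other call of a member. The cause of these changes was not tested.

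Leaving out single libraries gave 0 to 1 called members between sexes at E14.5, 1 to 3 with age in XY and 0 to 1 in the interaction. Over all genes it gave 553 to 1678 calls between sexes at E14.5, 1335 to 2687 in the interaction and 1949 to 3521 in the uterus. Against 1121, 1790 and 3866 calls with every library, moves of over 1.5 times came without any E14.5 library but XY replicate 1, without E16.5 XY replicate 1 (interaction) and without Amhr2+ or Gli1+ replicate 1 (uterus). Values that changed sign were all uncalled. Their ranges were -0.048 to 0.12 for Bambi and -0.24 to 0.082 for Id4 between sexes at E14.5, and -0.021 to 0.23 for Smad7 at E16.5. They were -0.20 to 0.30 for Id3 and -0.24 to 0.041 for Smad7 in the interaction, and -0.022 to 0.33 for Id1 in the uterus. With 3 libraries a group, the spread of Id1 leaves differences of 2-fold within its intervals in every fetal comparison.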
